A study of Rattus norvegicus with 11 samples.

Results

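Of the 10 genes chosen to stand for prostaglandin and leukotriene synthesis, 9 were found among the 30560 genes of the expression matrix by their symbol, and no row carried the symbol of Ptges, the inducible microsomal prostaglandin E synthase, which is therefore not analysed here. The 9 genes measured were Pla2g4a, Ptgs1, Ptgs2, Tbxas1, Hpgds, Ptger4, Alox5ap, Alox5 and Lta4h. All 9 had enough reads to be tested. They were measured by RNA sequencing of the striatum, a part of the basal ganglia. The 11 adult male Sprague-Dawley rats were taken at day 3, with 1 library per rat. In the hemorrhage groups this was the ipsilateral striatum, into which collagenase had been injected on the right side. The labels of the Normal rats give no side. Common hemorrhage (IC, n = 3) was made with 0.2 U of bacterial collagenase VII-S in 1.0 μL, and severe hemorrhage (IS, n = 3) with 0.6 U in 3.0 μL. Severe hemorrhage with hematoma aspiration (IS-HA, n = 3) received the severe dose and had 150 μL, about 75% of the hematoma, drawn off after 6 h. The 2 Normal rats were uninjured, so the enzyme, the needle track and the blood cannot be told apart in any comparison with them. No transgene or mutant strain was used.

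Total counts assigned to genes lay between 6701301 in IS-HA replicate 2 and 18817645 in IC replicate 3. A gene with 3 counts, taken as the limit of detection per library, stands at 0.448 CPM (counts scaled to the library total) in the smallest library and at 0.159 CPM in the largest, and limits of this kind cover counting error only. IS-HA replicate 2 stood apart in its group. The TPM values (counts scaled for gene length and for library size) of 8 neutrophil markers summed to 862 in that rat. In the other IS-HA rats they summed to 169 and 217. S100a8, at 542 TPM, and S100a9, at 277 TPM, held most of the 862. Over the 3 IS-HA rats Csf3r lay between 26.2 and 31.1 TPM and Cxcr2 between 1.32 and 1.84 TPM. The mean log2(TPM + 1) of the 8 was 3.65 in IS-HA replicate 2 and 2.84 and 2.94 in the others. Results that rest on IS-HA replicate 2 are given with and without it. The 12 striatal neuron markers summed to between 7850 and 8095 TPM in the Normal rats, so the striatal label was met by its markers.

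Prostaglandins and leukotrienes are short-lived lipid signals made from arachidonic acid. Phospholipase A2 releases the acid from membranes, the cyclooxygenases Ptgs1 and Ptgs2 turn it into prostaglandin H2, and terminal synthases turn that into thromboxane A2 or the prostaglandins D2, E2, F2 and I2. In the other branch, 5-lipoxygenase (Alox5) works with its activating protein (Alox5ap, also called FLAP) to make leukotriene A4, which Lta4h hydrolyses to the neutrophil attractant leukotriene B4. In the brain, thromboxane synthase and FLAP are mostly products of microglia and macrophages, whereas Ptgs2 is present in forebrain neurons even without injury.

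At day 3 Pla2g4a, which acts before the cyclooxygenase step, and the synthases Tbxas1 and Hpgds, which act after it, were higher after hemorrhage, and neither cyclooxygenase passed edgeR's test against Normal. Tbxas1, Alox5ap, Hpgds and Pla2g4a rose in all 3 hemorrhage groups against Normal, by 3.24-fold for Pla2g4a in IC up to 27.0-fold for Tbxas1 in IS. Lta4h rose in IS and IS-HA, and Ptger4 in IS. A gene was called at an adjusted p under 0.05 in edgeR's quasi-likelihood test over 15742 genes. By that rule 4 of the 9 genes were higher in IC than in Normal, where 13.0% of all genes tested were called higher and 4.64% lower. In IS, 6 of the 9 were higher, where 24.8% of all genes were called higher and 24.2% lower. In IS-HA, 5 of the 9 were higher, where 19.5% of all genes were called higher and 12.1% lower. Leaving out 1 library moved these shares by more than 1.5 times. Without Normal replicate 3 they were 4.96% higher and 0.217% lower in IC, 14.01% and 10.6% in IS, and 7.62% and 2.18% in IS-HA, and 3, 4 and 4 of the 9 were called higher. Without Normal replicate 1 they were 6.51% and 1.46% in IC and 10.6% and 5.44% in IS-HA, with 4 of the 9 called higher in each. In IC they were 12.2% and 2.80% without IC replicate 2, 8.32% and 0.822% without IC replicate 3, and 9.52% and 1.07% without IC replicate 4, each with 4 of the 9 called higher, and 19.2% and 14.1% without IS-HA replicate 2, with 6. The split of higher and lower genes also moved with scaling, and with library size alone it was 16.7% and 1.87% in IC, 29.2% and 18.1% in IS, and 24.2% and 7.01% in IS-HA. None of the 9 was called lower in these 3 comparisons by edgeR. At an unadjusted p under 0.05, 0 of the 9 were lower in IC, 0 in IS and 1 in IS-HA. Beside these stood 2278, 4412 and 3005 of all 15742 genes tested. In IS-HA DESeq2's Wald test and limma voom each called 1 of the 9 lower, Ptgs2, and 17.0% and 18.5% of all genes. The median log2 fold change of the 9 genes was 1.70 in IC, 1.97 in IS and 1.83 in IS-HA, beside 0.0033, 0.018 and 0.056 over all genes tested. The 3 comparisons share the same 2 Normal rats and are not independent of each other. In bulk tissue, more cells of a type and more RNA per cell cannot be told apart.

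**Figure D1:**
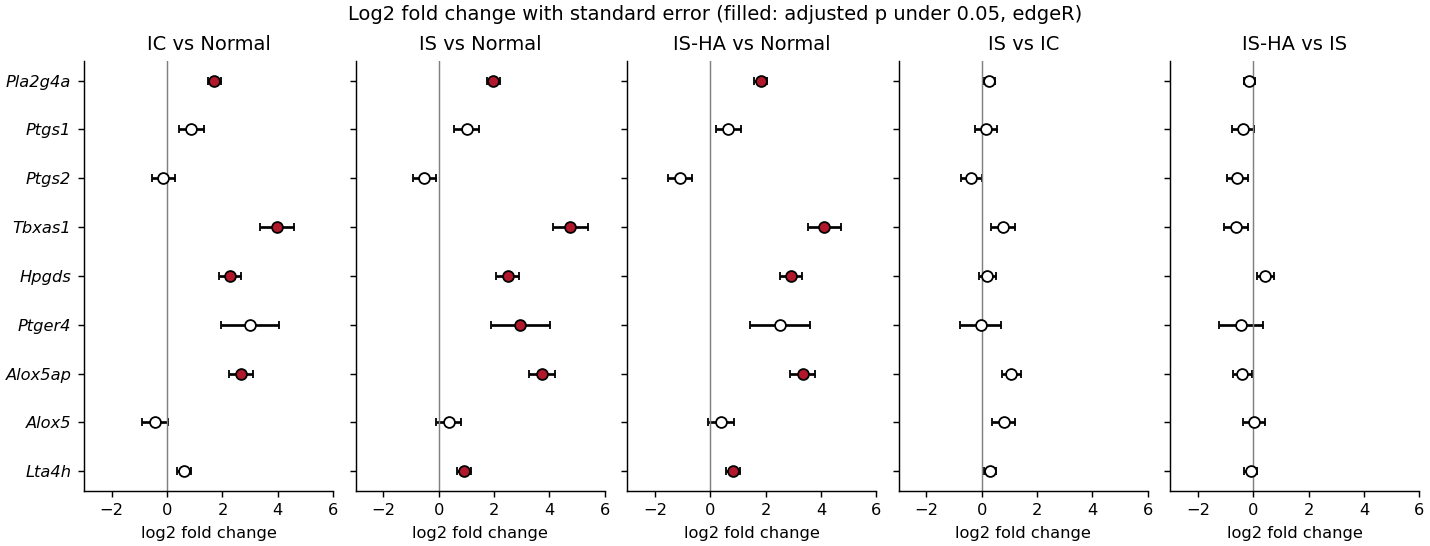
Log2 fold change (x axis) of each of the 9 genes (rows) in the 5 comparisons, with bars for the standard error and filled points for an adjusted p under 0.05 in edgeR's quasi-likelihood test. Tbxas1, at 3.98 to 4.76, lies farthest to the right in each comparison with Normal, Ptgs2 lies left of 0 in all 5 panels, and no point is filled in IS vs IC or IS-HA vs IS.

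Pla2g4a (ENSRNOG00000002657) encodes cytosolic phospholipase A2, the calcium-activated enzyme that frees arachidonic acid. Its level was 3.19 and 3.18 TPM in the Normal rats, 10.02, 13.1 and 9.24 TPM in IC, 15.1, 10.7 and 11.4 TPM in IS, and 14.4, 8.10 and 12.3 TPM in IS-HA. Every injured rat was above both Normal rats, and the 3 hemorrhage groups overlapped one another. The log2 fold change against Normal was 1.70 (SE 0.23) in IC, 1.97 (SE 0.24) in IS and 1.83 (SE 0.24) in IS-HA, with adjusted p = 7.8e-04, 1.6e-04 and 4.0e-04 from edgeR. Pla2g4a therefore had the smallest fold change of the 4 genes called in all 3 comparisons and, at 0.23 to 0.24, the smallest standard errors.

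Of 12 other phospholipases A2 in the matrix, 10 could be tested, and 4 were higher in each hemorrhage group than in Normal. Pla2g4e, a calcium-dependent relative of Pla2g4a, was called lower in IS, at a log2 fold change of -1.42 (adjusted p = 0.0060, edgeR), with -1.01 in IC (adjusted p = 0.058) and -0.82 in IS-HA (adjusted p = 0.083). The difference between those values and the one in IS was not called in either direct comparison. The 4 that rose were Pla2g2d, Pla2g5, Pla2g7 and Pla2g15. Pla2g2d and Pla2g5 are small secreted enzymes, Pla2g7 is the acetylhydrolase that inactivates platelet-activating factor, and Pla2g15 is lysosomal. Pla2g7 stood at 11.2 and 11.1 TPM in the Normal rats, 26.4 to 48.5 in IC, 53.3 to 109 in IS and 35.3 to 57.7 in IS-HA, with a log2 fold change of 2.75 (SE 0.45, adjusted p = 8.2e-04, edgeR) in IS. Pla2g2d had 2 counts in each Normal rat and 42 to 275 counts in the IS rats, and its ratio of counts per total count in IS over Normal was 118 (95% interval from counting error 45.6 to 434). IS replicate 4 held the 275 counts, and without it the ratio was 44.8 (95% interval 17.0 to 167). For Pla2g5, which had 5 and 3 counts in the Normal rats, that ratio was 11.9 in IS (95% interval 5.77 to 28.6).

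Ptgs1 (ENSRNOG00000007415) encodes the constitutive cyclooxygenase COX-1, found in microglia among other cells, and Ptgs2 (ENSRNOG00000002525) the inducible COX-2. Ptgs1 was at 8.08 and 6.64 TPM in the Normal rats, 12.1, 14.2 and 15.5 TPM in IC, 11.6, 8.90 and 23.4 TPM in IS, and 8.63, 8.41 and 19.0 TPM in IS-HA. In TPM all injured rats were above both Normal rats, although the lowest of them, at 8.41 TPM, was close to the higher Normal rat. In CPM scaled by TMM, as in edgeR's test, they overlapped, with IS-HA replicate 1 at 10.03 and Normal replicate 1 at 10.8. Its log2 fold change of 0.86 (SE 0.45) in IC, 1.01 (SE 0.46) in IS and 0.66 (SE 0.45) in IS-HA did not pass the test, with adjusted p = 0.20, 0.087 and 0.28 from edgeR. Without IS replicate 3, the lowest IS rat, the value in IS was 1.29 and passed (adjusted p = 0.046). With only the 2 groups compared, the value in IC was 0.87 and passed (adjusted p = 0.022, edgeR). IS replicate 4 and IS-HA replicate 3 held the 2 highest levels of Ptgs1 in the series.

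The mean of Ptgs2 was not above Normal in any hemorrhage group. Ptgs2 was at 7.39 and 9.41 TPM in the Normal rats, 9.81, 9.11 and 4.96 TPM in IC, 9.13, 4.95 and 3.50 TPM in IS, and 5.80, 1.67 and 4.72 TPM in IS-HA. IC and IS overlapped the Normal range, and the 3 IS-HA rats were all below it. The log2 fold change against Normal was -0.14 (SE 0.41) in IC, -0.52 (SE 0.42) in IS and -1.09 (SE 0.42) in IS-HA, and none passed edgeR's test (adjusted p = 0.84, 0.32 and 0.068). The value in IS-HA passed the threshold in DESeq2 (Wald test, -1.14, adjusted p = 0.031), in limma voom (-0.85, adjusted p = 0.038) and in edgeR without IS-HA replicate 1 (-1.39, adjusted p = 0.042), and it was -0.80 without IS-HA replicate 2 (adjusted p = 0.13). The 12 striatal neuron markers summed to 7850 and 8095 TPM in Normal, 3142 to 6223 in IC, 1544 to 3984 in IS and 2318 to 4085 in IS-HA, and 9 of the 12 were called lower in IS-HA. Whether their lower level had a part in the level of Ptgs2 was not tested.

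The promoters of both cyclooxygenase genes are shown because the 2 genes catalyse the same step. Of the 10 genes chosen, 8 have an entry in the RefSeq promoter table of build GRCr8, and Hpgds and Alox5ap have none. In the 250 bases before each start site, both strands were searched for the PU.1 core GAGGAA, the C/EBP motif TTNNGCAA, the AP-1 motif TGANTCA, the E-box CACGTG and the NF-kB motif. These occur in 23.3%, 9.22%, 6.34%, 5.59% and 6.33% of 33469 rat promoters of the same length. Capitals mark the matches, and the first sequence is chr3:39981169-39981418 and the second chr13:64713813-64714062, both on the plus strand.
Ptgs1: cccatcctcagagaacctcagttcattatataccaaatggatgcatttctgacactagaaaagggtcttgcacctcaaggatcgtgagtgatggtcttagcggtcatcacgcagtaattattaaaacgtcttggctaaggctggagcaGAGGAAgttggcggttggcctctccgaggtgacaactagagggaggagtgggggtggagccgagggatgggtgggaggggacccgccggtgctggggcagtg
Ptgs2: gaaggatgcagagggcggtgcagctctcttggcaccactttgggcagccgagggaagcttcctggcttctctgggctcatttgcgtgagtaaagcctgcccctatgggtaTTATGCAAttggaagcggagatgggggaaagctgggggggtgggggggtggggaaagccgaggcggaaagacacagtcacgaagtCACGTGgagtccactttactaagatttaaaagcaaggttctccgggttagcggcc
Ptgs1 held 1 match, the PU.1 core from 102 to 97 bases before the start. PU.1 is a transcription factor of myeloid cells. Ptgs2 held a C/EBP match from 140 to 133 bases before the start and an E-box from 55 to 50 bases before it, and no match overlapped another. Matches of this kind are a description of the letters and say nothing of binding in these rats.

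The balance between the 2 genes was compared in each rat. Ptgs2 made up 47.8% and 58.6% of the cyclooxygenase TPM in the Normal rats (mean 53.2% ± 7.68, SD, n = 2), 44.8%, 39.1% and 24.2% in IC (36.0% ± 10.6, SD, n = 3), 44.1%, 35.7% and 13.0% in IS (30.9% ± 16.0, SD, n = 3), and 40.2%, 16.6% and 19.9% in IS-HA (25.6% ± 12.8, SD, n = 3). All 9 injured rats were below both Normal rats. The mean log2 ratio of Ptgs2 to Ptgs1 TPM was lower than in Normal by 1.05 in IC, 1.50 in IS and 1.82 in IS-HA. Each of these gave p = 0.20 in a two-sided exact permutation test, the smallest that 3 rats against 2 allow, and 0.33 after adjustment over 5 comparisons. The design cannot reach 0.05 there. Between IS and IC the log2 ratio differed by -0.45 (exact permutation p = 0.60, adjusted 0.75), and between IS-HA and IS by -0.33 (exact permutation p = 0.90, adjusted 0.90), and the rats of these groups overlapped. The first of these was 0.27 without IS replicate 4, and the second 0.019 without IS-HA replicate 2 and 0.15 without IS replicate 2, so neither had a stable direction.

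**Figure D2:**
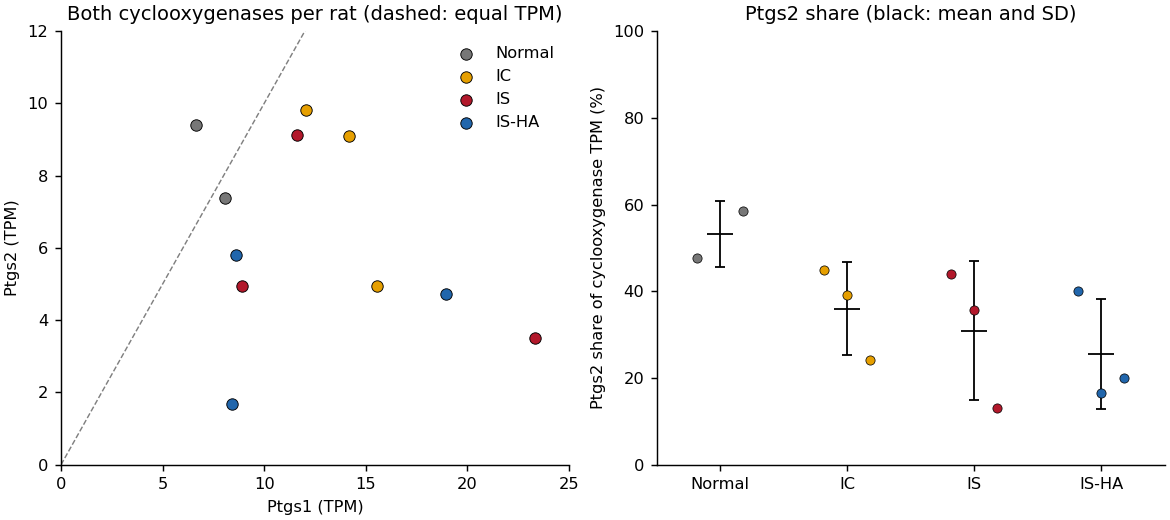
Left, Ptgs2 against Ptgs1 in TPM, 1 point per rat, with a dashed line for equal TPM. Right, the share of Ptgs2 in the sum of both (%), with points for rats and black bars for the mean and SD of each group. The Normal rats are at 47.8% and 58.6% and the injured rats between 13.0% and 44.8%.

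Tbxas1 (ENSRNOG00000007918), thromboxane A synthase, makes thromboxane A2, which constricts vessels and activates platelets. It was at 1.90 and 0.863 TPM in the Normal rats, 14.2, 30.5 and 24.4 TPM in IC, 36.8, 30.2 and 45.4 TPM in IS, and 18.7, 35.9 and 16.9 TPM in IS-HA. The lowest injured rat, at 14.2 TPM, was farther above the higher Normal rat in ratio than for any other of the 9 genes. Its log2 fold change was 3.98 (SE 0.61) in IC, 4.76 (SE 0.63) in IS and 4.13 (SE 0.61) in IS-HA, with adjusted p = 0.0013, 2.6e-04 and 8.6e-04 from edgeR. Without IS-HA replicate 2, the highest of its group, the value in IS-HA was 3.53 (adjusted p = 5.2e-04). Its promoter is shown because it had the largest change. It lies at chr4:68631635-68631884 on the plus strand (GRCr8, RefSeq), with the matches in capitals as above.
Tbxas1: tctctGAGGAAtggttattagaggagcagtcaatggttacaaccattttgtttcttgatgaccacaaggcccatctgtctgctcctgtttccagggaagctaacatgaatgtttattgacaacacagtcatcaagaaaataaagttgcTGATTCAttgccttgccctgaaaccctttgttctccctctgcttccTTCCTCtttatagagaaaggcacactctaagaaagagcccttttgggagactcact
It held the PU.1 core at 245 to 240 bases before the start and again, on the minus strand, at 56 to 51, and an AP-1 match at 102 to 96. Among the 7 measured genes with an entry, the PU.1 core was in those of Ptgs1, Tbxas1, Ptger4 and Lta4h and not in those of Ptgs2, Pla2g4a and Alox5.

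Hpgds (ENSRNOG00000006583), the hematopoietic prostaglandin D synthase, makes prostaglandin D2 in microglia, macrophages and mast cells. It was at 1.22 and 1.02 TPM in the Normal rats, 5.64, 5.78 and 5.90 TPM in IC, 5.37, 8.76 and 4.77 TPM in IS, and 8.23, 9.24 and 8.64 TPM in IS-HA. Every injured rat was above both Normal rats, and the IC and IS-HA rats did not overlap, although that pair was not among the comparisons tested. The log2 fold change against Normal was 2.29 (SE 0.40) in IC, 2.49 (SE 0.40) in IS and 2.92 (SE 0.40) in IS-HA, with adjusted p = 0.0029, 7.7e-04 and 5.6e-04 from edgeR. Without Normal replicate 3 the call in IC was lost (2.10, adjusted p = 0.054). Ptgds, the lipocalin-type synthase of the same product made by meninges and oligodendrocytes, was at 784 and 1342 TPM in the Normal rats, 279 to 398 in IC, 97.4 to 725 in IS and 276 to 931 in IS-HA, and its log2 fold change of -1.55 in IS did not pass (adjusted p = 0.062, edgeR). Of 4 other terminal synthases tested, Ptgds included, 2 were called in IS and 1 in IS-HA, all higher. Ptges3, the cytosolic prostaglandin E synthase that is also the HSP90 co-chaperone p23, rose in IS by 0.75 and in IS-HA by 0.68 on the log2 scale. Ptgis, prostacyclin synthase, rose in IS by 1.44 on that scale (adjusted p = 0.018, edgeR) and missed the threshold in the other groups.

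Ptger4 (ENSRNOG00000013240), the EP4 receptor for prostaglandin E2, was the least abundant of the 9 in Normal. It had 2 and 4 counts in the Normal rats, 18, 55 and 4 counts in IC, 20, 15 and 9 counts in IS, and 24, 0 and 15 counts in IS-HA. In TPM these were 0.157 and 0.321, then 1.67, 4.01 and 0.477, then 2.45, 1.75 and 1.51, then 2.21, 0 and 2.03. The IS rats were all above Normal, whereas IS-HA replicate 2, the smallest library, held no read and so overlapped. The log2 fold change passed in IS (2.95, SE 1.08, adjusted p = 0.042, edgeR) and not in IC (2.99, SE 1.06, adjusted p = 0.073) or IS-HA (2.51, SE 1.09, adjusted p = 0.098). The ratio of counts per total count over Normal was 10.4 in IC (95% interval from counting error 4.55 to 29.1), 8.98 in IS (3.81 to 25.8) and 7.30 in IS-HA (3.07 to 21.1). Without IC replicate 3 the ratio in IC was 5.14 (95% interval 2.02 to 15.5). The calls turned on the method and on single libraries. In IC the gene passed in DESeq2 (Wald test, adjusted p = 0.027) and in edgeR with only the 2 groups compared (adjusted p = 0.030), in IS-HA it passed in limma voom (adjusted p = 0.026), and in IS it did not pass in limma trend (adjusted p = 0.092). Without IS-HA replicate 2 the log2 fold change was 3.01 in IC and 2.97 in IS-HA and both passed (adjusted p = 0.016 and 0.025). The call in IS was lost without Normal replicate 1 (adjusted p = 0.18), Normal replicate 3 (0.14), IC replicate 2 (0.055), IS replicate 2 (0.082), IS replicate 3 (0.067), IS replicate 4 (0.064) or IS-HA replicate 3 (0.052).

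The other prostanoid receptors and the genes for removing prostaglandins are few, and most did not pass. Of 6 other receptors tested, 1 was higher in IC, 2 in IS and 1 in IS-HA. Ptger2, the EP2 receptor that like EP4 raises cyclic AMP, rose in all 3 groups. It stood at 0.962 and 0.885 TPM in the Normal rats, 3.06, 7.69 and 6.28 TPM in IC, 13.2, 9.87 and 18.4 TPM in IS, and 5.20, 4.76 and 7.64 TPM in IS-HA, with a log2 fold change of 3.90 (SE 0.51, adjusted p = 2.6e-04, edgeR) in IS. All IS rats were above all IC and IS-HA rats in Ptger2 TPM. Ptgir, the prostacyclin receptor, was called in IS alone by the threshold (2.01, adjusted p = 0.028, edgeR), and Tbxa2r, the receptor for the product of Tbxas1, was at 0.63 in IS (adjusted p = 0.21). Among 6 genes for transport and breakdown, Slco2a1, which carries prostaglandins into cells, and Ptgr1, a reductase of their 15-keto forms and of leukotriene B4, rose in all 3 groups, with log2 fold changes of 4.14 (SE 0.68) and 4.00 (SE 0.55) in IS. Hpgd, the first enzyme of prostaglandin breakdown, was called higher in IC (2.08, adjusted p = 0.024, edgeR) and not in IS (1.05, adjusted p = 0.13).

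Alox5ap (ENSRNOG00000000907) presents arachidonic acid to 5-lipoxygenase. It was at 4.32 and 3.42 TPM in the Normal rats, 19.6, 32.2 and 25.2 TPM in IC, 51.5, 40.4 and 61.5 TPM in IS, and 32.3, 53.2 and 30.3 TPM in IS-HA. No injured rat overlapped Normal, and every IS rat was above every IC rat. The log2 fold change against Normal was 2.66 (SE 0.44) in IC, 3.73 (SE 0.46) in IS and 3.34 (SE 0.45) in IS-HA, with adjusted p = 0.0022, 1.7e-04 and 5.2e-04 from edgeR. These are 6.32-fold, 13.3-fold and 10.1-fold. Alox5 (ENSRNOG00000012972), the lipoxygenase that Alox5ap serves, was at 3.17 and 1.90 TPM in the Normal rats, 1.25, 2.57 and 2.06 TPM in IC, 2.28, 4.41 and 3.02 TPM in IS, and 3.90, 3.73 and 2.43 TPM in IS-HA. All 3 groups overlapped Normal. Its log2 fold change was -0.44 (SE 0.45) in IC, 0.36 (SE 0.46) in IS and 0.39 (SE 0.46) in IS-HA, and none passed (adjusted p = 0.52, 0.53 and 0.53 from edgeR). The means of Alox5ap and Alox5 were 3.87 and 2.54 TPM in Normal, and 51.2 and 3.24 TPM in IS.

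Lta4h (ENSRNOG00000004494), leukotriene A4 hydrolase, was the most abundant of the 9 genes in Normal and changed by less than 2-fold. It was at 19.5 and 21.6 TPM in the Normal rats, 29.5, 39.7 and 29.1 TPM in IC, 38.4, 30.0 and 45.6 TPM in IS, and 33.2, 38.6 and 36.0 TPM in IS-HA. Every injured rat was above both Normal rats. The log2 fold change was 0.61 (SE 0.25, adjusted p = 0.11, edgeR) in IC, 0.91 (SE 0.25, adjusted p = 0.013) in IS and 0.81 (SE 0.25, adjusted p = 0.032) in IS-HA. The calls in IS and IS-HA were lost without Normal replicate 1 (adjusted p = 0.068 and 0.13) or Normal replicate 3 (0.079 and 0.16), and the one in IS-HA also without IS-HA replicate 2 (0.62, adjusted p = 0.062). With only the 2 groups compared the call in IS-HA was lost too (adjusted p = 0.086). The value in IC passed without IS-HA replicate 2 (0.61, adjusted p = 0.042, edgeR), with library size alone (0.76, adjusted p = 0.045), in limma voom (0.57, adjusted p = 0.021) and in edgeR with only the 2 groups compared (0.62, adjusted p = 0.026).

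The cysteinyl leukotrienes make vessels leaky. Of 6 enzymes of their synthesis and conversion that could be tested, 3 were higher in IC, 4 in IS and 4 in IS-HA. Ltc4s, leukotriene C4 synthase, was at 6.93 and 8.01 TPM in the Normal rats, 13.0 to 28.8 in IC, 12.2 to 24.9 in IS and 28.5 to 44.2 in IS-HA, with log2 fold changes of 1.41, 1.28 and 2.25 that all passed (adjusted p = 0.034, 0.022 and 0.0026, edgeR). Mgst2, a microsomal transferase that can make the same product, had 3 and 4 counts in the Normal rats and 89, 95 and 186 counts in the IS rats. Its ratio of counts per total count in IS over Normal was 64.8 (95% interval from counting error 31.1 to 162). Dpep2 and Ggt5, which trim leukotriene C4 and D4, rose in IS by 3.72 (SE 0.56) and 2.54 (SE 0.34) on the log2 scale. Of 3 leukotriene receptors tested, 1 was called in any of the comparisons with Normal. This was Gpr17, a marker of oligodendrocyte precursors that has been assigned to the family, which was lower in IS (-0.87, adjusted p = 0.041, edgeR). Cysltr1, the main receptor for leukotriene D4, was at 1.13 in IC (adjusted p = 0.25) and 0.60 in IS (adjusted p = 0.50).

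**Figure D3:**
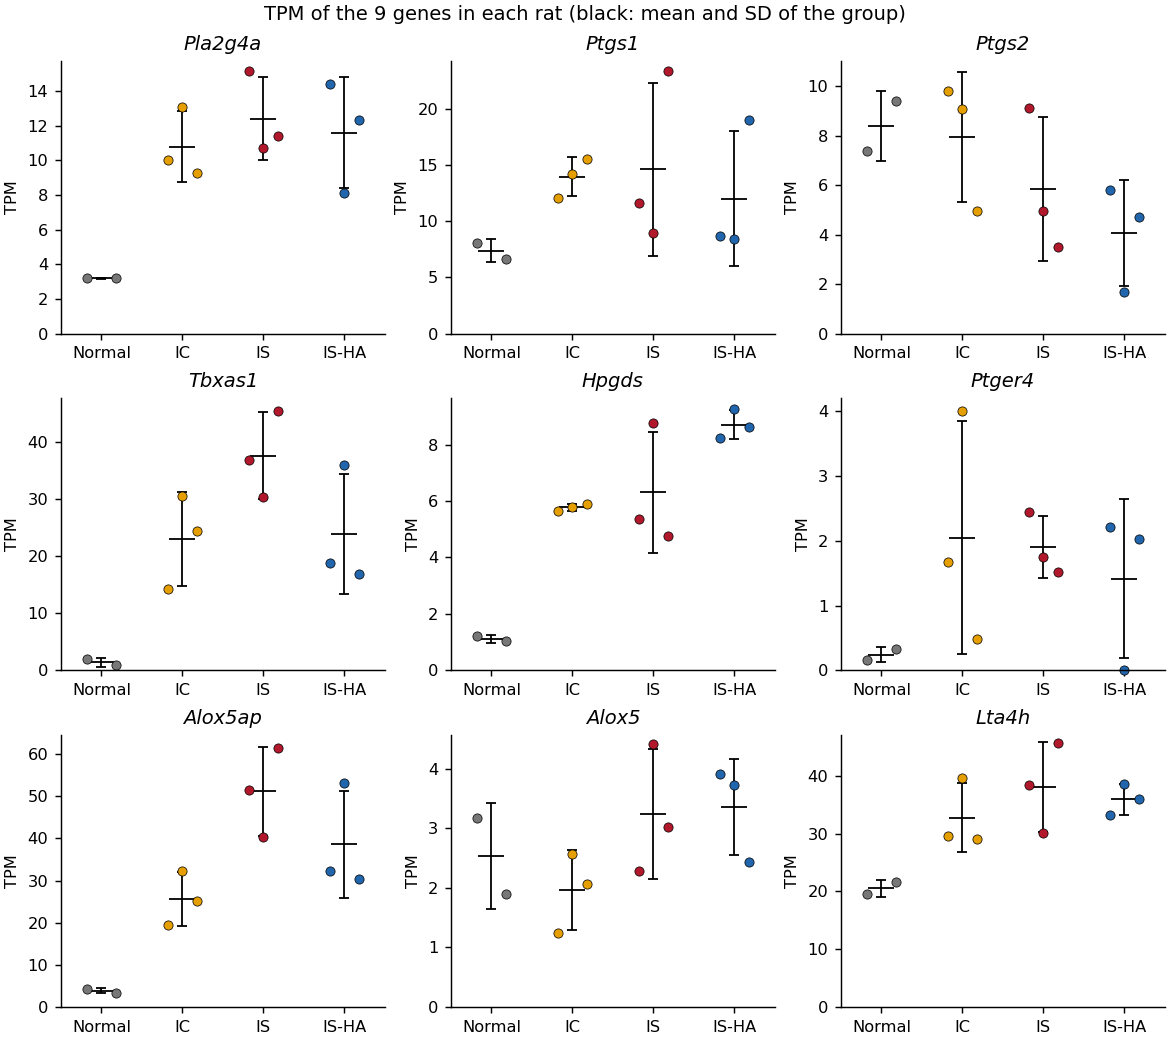
TPM (y axis, from 0) of each of the 9 genes in every rat, by group. Points are rats and black bars the mean and SD of the group. Every injured rat is above both Normal rats for Pla2g4a, Ptgs1, Tbxas1, Hpgds, Alox5ap and Lta4h, while Ptgs2 lies below the Normal range in all IS-HA rats. The share of all genes that separate in this way was not counted.

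Over all 8 lists of other pathway genes, 55 of 60 were in the matrix and 43 could be tested. Of these 14 were higher and 0 lower in IC, where 13.0% of all genes were called higher and 4.64% lower. In IS 17 were higher and 2 lower, where the shares of all genes were 24.8% and 24.2%, and in IS-HA 16 were higher and 0 lower, where they were 19.5% and 12.1%. Genes with few reads in Normal could enter the test through the injured groups. Among other lipoxygenases Alox12, which makes 12-hydroxy acids, rose in all 3 groups, from 0.254 and 0.605 TPM in the Normal rats to between 2.44 and 4.89 TPM in the injured ones. Cmklr1, a receptor for chemerin and, in some reports, resolvin E1, stood at 1.20 and 1.09 TPM in the Normal rats and at 18.8, 18.2 and 30.7 TPM in IS, with a log2 fold change of 4.33 (SE 0.38, adjusted p = 3.6e-05, edgeR). Gpr18, a receptor of leukocytes, had 0 and 2 counts in the Normal rats and 24 to 37 counts in IS, a ratio of counts per total count of 59.4 (95% interval from counting error 16.0 to 498), and without Normal replicate 1, the rat at 0, the ratio was 30.6 (8.25 to 256).

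**Figure D4:**
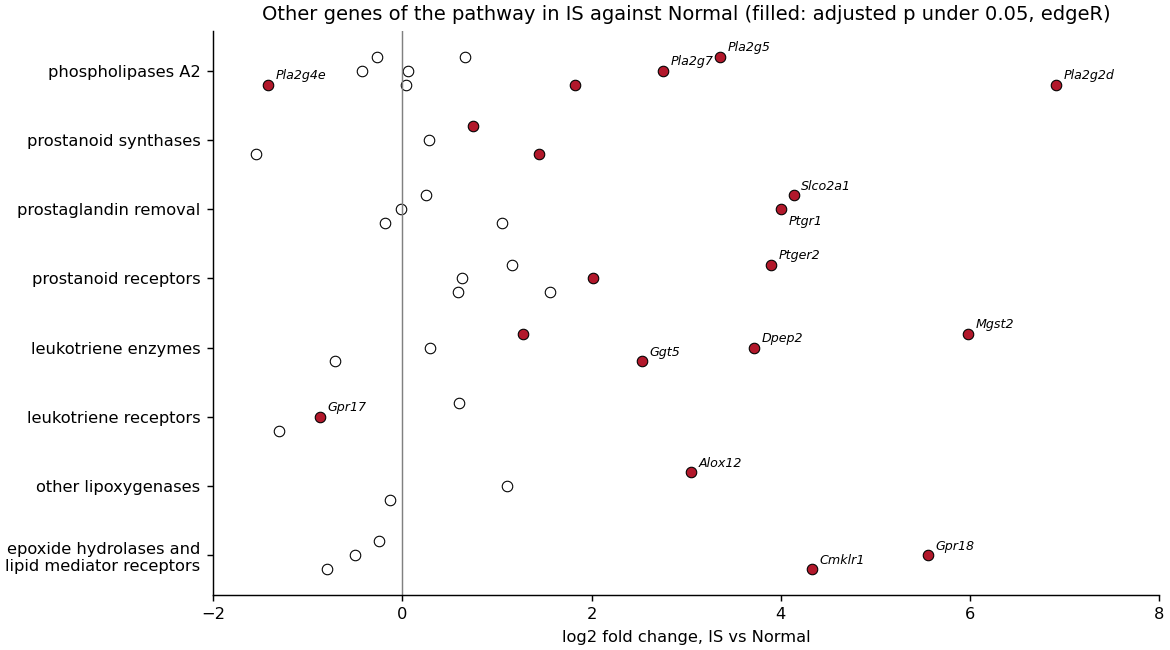
Fitted log2 fold change in IS against Normal (x axis) of the 43 other pathway genes tested, in 8 lists (rows, with points spread vertically for legibility). Filled points passed at an adjusted p under 0.05 in edgeR, 17 to the right and 2 (Pla2g4e and Gpr17) to the left, and the fitted values of Gpr18 and Pla2g2d rest on 0 to 2 counts per Normal rat.

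Most markers of myeloid cells moved with the genes that rose. The 12 microglia and macrophage markers summed to 232 and 314 TPM in the Normal rats, 1739 to 2381 in IC, 2803 to 4264 in IS and 2139 to 3314 in IS-HA. Of these 12, 11 were higher in IC, 10 in IS and 11 in IS-HA. The means of Tmem119 and P2ry12 moved less than the sum. Tmem119 was at 26.4 TPM in Normal, 35.4 in IC, 20.3 in IS and 28.1 in IS-HA. P2ry12 was at 27.2, 62.4, 37.7 and 62.4 TPM in the same order. The 8 neutrophil markers summed to 4.91 and 5.11 TPM in Normal, 84.1 to 267 in IC, 498 to 699 in IS and 169 to 862 in IS-HA, and all 6 that could be tested were higher in each group. Mpo, which defines early neutrophils, was at 0 in 9 of 11 libraries. The 8 platelet markers summed to 7.22 and 10.3 TPM in Normal and to between 86.8 and 782 in the injured rats, but nearly all of that was Pf4, which macrophages also make. Gp1bb was at 0 in all 11 libraries, Ppbp in 8, Gp6 in 7, and Gp9 and Gp1ba in 6. Of 10 mast cell and eosinophil markers, the sum was 14.7 and 22.2 TPM in Normal and 4.71 to 11.7 in the injured rats, and Cpa3 was at 0 in 9 libraries. Kit made up 13.6 and 21.0 TPM of the sums in Normal, and the other 9 markers summed to 1.12 and 1.15 TPM in Normal and 1.90 to 6.31 in the injured rats. Hdc, the enzyme that makes histamine, was called higher in all 3 groups, and Kit lower in IS and IS-HA. For the erythroid list the sum was 42.3 and 47.9 TPM in Normal and 12.4 to 134 in the injured rats. Astrocyte markers summed to 3111 and 3183 TPM in Normal and 3561 to 8674 in injury. Of these, Gfap was at 377 and 425 TPM in Normal and 2633 to 6048 in injury, and the other 6 summed to 2734 and 2757 TPM in Normal, 2449 to 2928 in IC, 928 to 2050 in IS and 1570 to 2559 in IS-HA. Gfap was called higher and Slc1a2, a glutamate transporter, lower in all 3 groups. Endothelial markers summed to 122 and 169 and then 219 to 277, and pericyte and fibroblast ones to 158 and 183 and then 115 to 270. In IS 3 of 7 endothelial markers were called higher and 1 lower, and 5 of 8 pericyte and fibroblast markers higher and 1 lower. What part any of these cells had in the values of the 9 genes was not tested.

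Set against the myeloid markers on the log2(TPM + 1) scale, the 9 genes separated. For each rat the mean log2(TPM + 1) of the 12 microglia and macrophage markers was taken from that of the gene. Alox5ap stayed near the markers, at a mean difference of -1.68 in Normal, -2.13 in IC, -1.41 in IS and -1.68 in IS-HA. Tbxas1 was at -2.74 in Normal and at -2.32, -1.85 and -2.39 in IC, IS and IS-HA. On this scale these were the only 2 of the 9 whose Normal mean did not exceed all 3 injured means. Hpgds went from -2.87 to -4.08, -4.27 and -3.67, and Pla2g4a from -1.89 to -3.29, -3.37 and -3.32. Ptgs1 went from -0.89 to -2.94, -3.24 and -3.34, Lta4h from 0.47 to -1.78, -1.83 and -1.74, and Ptger4 from -3.65 to -5.40, -5.57 and -5.85. The widest spans were those of Ptgs2, from -0.73 to -3.72, -4.40 and -4.71, and Alox5, from -2.16 to -5.30, -5.05 and -4.84. These values are a description with no test, and at low TPM the added 1 shortens a difference. In edgeR's fit, which does not add 1 to TPM, the median log2 fold change of the 12 markers was 2.89, 3.25 and 3.11. Ptger4 rose there by 2.99, 2.95 and 2.51, Hpgds by 2.29, 2.49 and 2.92, and Tbxas1 by 3.98, 4.76 and 4.13. The falls of Ptger4 and Hpgds and the small shift of Tbxas1 therefore depend in part on the added 1.

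**Figure D5:**
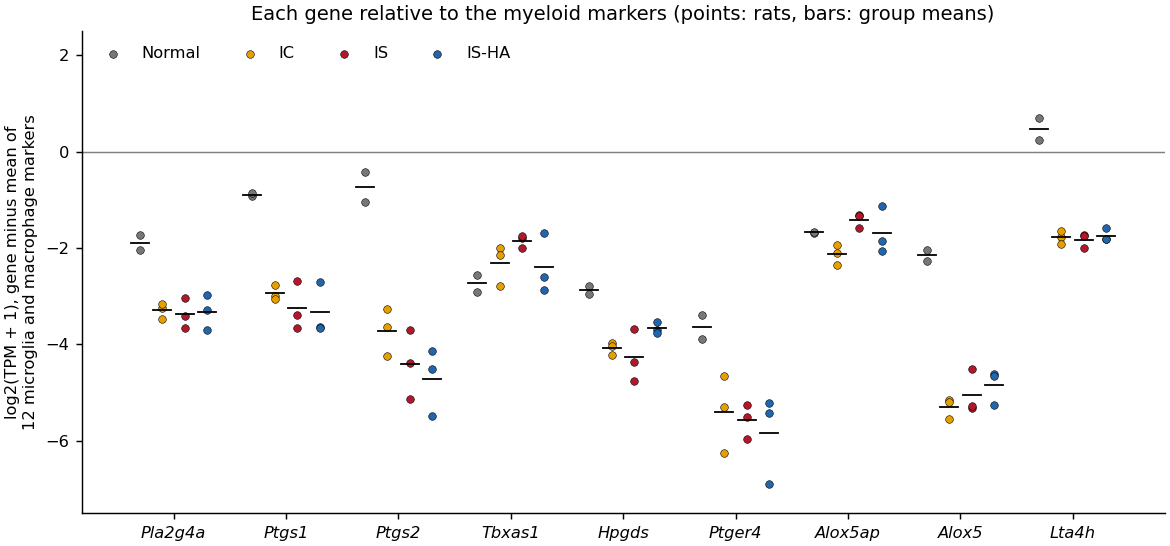
Difference between log2(TPM + 1) of each gene and the mean over 12 microglia and macrophage markers (y axis), with points for rats and bars for group means. Alox5ap and Tbxas1 have injured means within 1 unit of the Normal one, and Ptgs2 and Alox5 have all injured rats more than 2 units below the Normal rats.

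Severe and common hemorrhage were then compared. They differ in collagenase dose and injected volume as well as in the size of the bleed, and these cannot be told apart. By edgeR 0 of the 9 were called higher and 0 lower in IS than in IC, where 0% of all genes were called higher and 0% lower. At an unadjusted p under 0.05, 3498 of all genes and 1 of the 9 differed. DESeq2's Wald test called 470 genes higher and 507 lower, and limma voom 986 higher and 897 lower, and by each of them 1 of the 9 was higher. That gene was Alox5ap, for which every IS rat was above every IC rat. Its log2 difference was 1.07 (SE 0.34, adjusted p = 0.16) by edgeR, 1.09 (adjusted p = 0.0495) by DESeq2 and 0.96 (adjusted p = 0.026) by voom. Without IS-HA replicate 2, which belongs to neither group, edgeR gave 1.07 (adjusted p = 0.027), in a fit of 15897 genes that called 1015 higher and 1226 lower. Tbxas1 differed by 0.78 (SE 0.43, adjusted p = 0.29) and Alox5 by 0.80 (SE 0.42, adjusted p = 0.27). The other 6 differed by between -0.38 for Ptgs2 and 0.30 for Lta4h, with standard errors of 0.19 to 0.75. Neutrophil marker sums did not overlap either between IC, at 84.1 to 267 TPM, and IS, at 498 to 699 TPM. Nor did the microglia and macrophage sums, at 1739 to 2381 TPM in IC and 2803 to 4264 TPM in IS. The mean log2(TPM + 1) of those 12 markers did overlap, at 6.71 to 6.98 in IC and 6.96 to 7.30 in IS. At an unadjusted p under 0.05 from edgeR, 4 of the 12 were higher in IS and 2 lower. The part of neutrophils, microglia and macrophages in the difference of Alox5ap was not tested.

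Aspiration was compared with severe hemorrhage left untreated. By edgeR 0 of the 9 genes were called higher and 0 lower in IS-HA than in IS, where 0.00635% of all genes were called higher, which is 1 gene, and 0% lower. None of the 9 had an unadjusted p under 0.05, beside 1408 of all genes tested. DESeq2's Wald test and limma voom also called 0 of them, beside 0.311% and 1.69% of all genes higher and 0.140% and 1.04% lower. Alox5ap was lower by 0.39 on the log2 scale without passing (SE 0.34, adjusted p = 0.71, edgeR), Tbxas1 was at -0.63 (SE 0.43, adjusted p = 0.65), Ptgs2 at -0.57 (SE 0.39, adjusted p = 0.64) and Hpgds at 0.44 (SE 0.31, adjusted p = 0.65). IS-HA replicate 2 had the highest Alox5ap and Tbxas1 and the lowest Ptgs2, Pla2g4a and Ptger4 of its group. In TPM, but not in CPM scaled by TMM, it also had the lowest Ptgs1. Without it Tbxas1 was at -1.23 (SE 0.36, adjusted p = 0.066), Alox5ap at -0.86 (SE 0.27, adjusted p = 0.073) and Ptgs2 at -0.29 (adjusted p = 0.59), in a fit that called 540 genes higher and 155 lower and still none of the 9. The microglia and macrophage markers summed to 3314 TPM in that rat and to 2139 and 2338 TPM in the other IS-HA rats. Their mean log2(TPM + 1) was the lowest of the group in that rat, at 6.90 beside 6.91 and 7.03. The direction therefore depended on the scale.

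In TPM, which accounts for gene length, the order of the genes changed with injury. Normal was led by Lta4h, at a mean of 20.5 TPM, followed by Ptgs2 at 8.40 and Ptgs1 at 7.36, and the ranges of these last 2 overlapped. In IS Alox5ap led at 51.2 TPM, with Lta4h at 38.0 and Tbxas1 at 37.5, and the ranges of all 3 overlapped. Ptgs2 was then the seventh of 9, at 5.86 TPM. The likeness of profiles was measured as the root mean square difference of centred log2 CPM over the 11 libraries. The tested genes nearest to Alox5ap were Ung, Dap, P2ry6, Melk and RT1-DMa, at 0.139 to 0.157. Among the other measured members, Tbxas1 was nearest to Alox5ap, at rank 489 of 15741 genes, then Hpgds at 962 and Pla2g4a at 1301, and Ptgs2 was farthest at 12985. The genes nearest to Ptgs2 were Zfp764, Znfx1, Iqca1, Lamc3 and Ints2, at 0.283 to 0.312, and the nearest of the other members, Lta4h, was at rank 11106 from it. These distances describe 11 libraries that differ in depth, and no test was made of them.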

How the data were processed

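RNA of the striatum, ipsilateral in the hemorrhage groups, was measured at day 3 in 11 rats, grouped by the labels into Normal, IC, IS and IS-HA. Libraries were poly(A)-selected and read from both ends on an Illumina instrument. The submitters' processing notes list fastp 0.20.0, FastQC 0.11.9, HISAT2 2.1.0, SAMtools 1.9, featureCounts and DESeq2, with build mRatBN7.2, and the annotation version and strand setting are not given in the sources used here. The authors deposited raw counts of reads for each gene, as whole numbers. TPM values, scaled for gene length and to one sum per library, were deposited by the authors as well.

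Counts were filtered with filterByExpr, scaled by TMM and tested by the quasi-likelihood method of edgeR 4.0.16 (R 4.3.3). A single model held all 4 groups, and p-values of the 15742 genes were adjusted by Benjamini and Hochberg's method. Standard errors were approximated by dividing the size of the log2 fold change by the root of the F statistic. Levels are TPM, and the log2 ratio of Ptgs2 to Ptgs1 was set between groups in a permutation test, exact and two-sided. The 95% intervals of count ratios are exact Clopper-Pearson intervals. The labels do not say that rats of a group came from separate cohorts, so p-values measure the spread between these rats. Scripts were tested on simulated data.

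The members and gene lists were chosen with earlier results of these data known. All members are named, and of the other pathway genes the 12 with the largest absolute change among those past the threshold in IS vs Normal, with others added after their values were seen where the text describes a list. The genes so added are Pla2g4e, Pla2g15, Ptgds, Ptges3, Ptgis, Ptgir, Tbxa2r, Hpgd, Ltc4s, Gpr17 and Cysltr1. For Ptgs2 and Alox5ap the 5 nearest profiles are named, from log2 CPM with a prior count of 2. Alternatives were DESeq2's size factors, library size alone, TMM without 24 hemoglobin and mitochondrial genes, DESeq2 1.42.0 (Wald test), limma 3.58.1 (voom with a quality weight per library, and trend on log2(TPM + 1)), no filter, at least 10 counts in every library, only the 2 groups compared, each library left out, the replicate number as a block, an added cutoff of 1 on the absolute log2 fold change, and CPM in place of TPM for the ratio. The block fits kept only rats whose replicate number both groups held. Count ratios without each library, and the astrocyte, mast cell and eosinophil marker sums without Gfap or Kit, were added after the values were seen.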

Additional observations from a re-analysis of the deposited data

How the results depend on the processing

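Tbxas1, Alox5ap and Pla2g4a kept their calls against Normal in all alternatives run, and Hpgds in all in which it was tested but the fit of IC without Normal replicate 3. Hpgds and Ptger4 were not tested with at least 10 counts in every library, where 3, 4 and 4 of the members were higher in IC, IS and IS-HA. In that fit 12.3%, 24.9% and 19.6% of all genes were called higher and 4.67%, 25.2% and 13.1% lower. The 12 named pathway genes kept theirs in IS vs Normal wherever they were tested. With only the 2 groups compared, 7 of the 9 genes were higher in IC. In IS-HA vs Normal, 5 were higher and 1 lower with DESeq2, 6 and 1 with voom, and 7 and 1 with the replicate block. Of all genes, 21.5% were higher and 17.0% lower there with DESeq2, 22.8% and 18.5% with voom, and 20.3% and 17.8% with the block. Over fits leaving out one library 0 to 1 were lower, 1 without IS-HA replicate 1. In IS vs IC 1 was higher with DESeq2 or voom (0 to 1, 1 without IS-HA replicate 2), beside 3.05% and 6.26% of all genes. Ptger4 in IS vs Normal lost its call with limma trend, and Lta4h in IS-HA vs Normal with only the 2 groups compared. Lta4h did not reach the added fold cutoff. Library size alone moved the median of all genes against Normal to 0.14, 0.15 and 0.18, and put Ptgs2 in IC at 0.0046.

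Over all genes, 13.0% were called higher and 4.64% lower in IC. These were 15.6% and 9.86% with DESeq2, 21.1% and 18.4% with voom, 19.0% and 16.7% with only the 2 groups compared, 13.4% and 1.50% with limma trend, and 4.96% to 19.2% and 0.217% to 14.1% over fits leaving out one library. In IS-HA, with 19.5% and 12.1%, they were 22.8% and 18.5% with voom, 10.6% and 4.77% with only the 2 groups compared, 19.1% and 7.07% with limma trend, and 7.62% to 20.8% and 2.18% to 12.9% over fits leaving out one library. In IS, with 24.8% and 24.2%, that range was 14.01% to 30.2% and 10.6% to 29.2%.

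These uncalled log2 differences changed sign, and the cause was not tested. In IS vs IC, Ptgs1 was -0.30 with voom and -0.039 with limma trend, and Ptger4 was 0.0025 with DESeq2, 0.62 with voom and 0.091 with limma trend. In IS-HA vs IS, voom put Ptgs1 at 0.10 and Alox5 at -0.26. Over fits that left out one library, the ranges were -0.30 to 0.059 for Ptgs2 and -0.81 to 0.054 for Alox5 in IC vs Normal, and -0.012 to 0.85 for Alox5 in IS vs Normal. In IS vs IC they were -0.43 to 0.42 for Ptgs1, -0.12 to 0.35 for Hpgds, -0.45 to 0.84 for Ptger4 and -0.93 to 0.27 for the log2 ratio of Ptgs2 to Ptgs1. In IS-HA vs IS they were -0.78 to 0.22 for Ptgs1, -0.87 to 0.011 for Ptger4, -0.21 to 0.29 for Alox5, -0.29 to 0.11 for Lta4h and -1.04 to 0.15 for that ratio.

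Same-numbered rats are different animals. The correlations of their deviations from the group means were 0.356, -0.340 and 0.0848 for IS and IC. They were -0.475 and -0.0894 for IS-HA and IS, and -0.364 and 0.338 for IS-HA and Normal. Deviations within a group of 2 or 3 rats sum to 0, so these values cannot decide whether the numbers pair the rats. With the replicate number as a block, Ptger4 was 0.16 in IS vs IC, and in IS-HA vs IS Ptgs1 was 0.40, Alox5 -0.0030 and Lta4h 0.21. In IS-HA vs Normal 3 genes passed in the block fit and not in the main fit, Ptger4 (2.99, adjusted p = 4.9e-04), Ptgs1 (0.67, adjusted p = 0.045) and Ptgs2 (-0.80, adjusted p = 0.011), all from edgeR. That fit also left out IS-HA replicate 2, and the IS-HA vs IS one left out IS-HA replicate 1 and IS replicate 4. With no block and without IS-HA replicate 2, Ptger4 passed (2.97, adjusted p = 0.025, edgeR). Ptgs1 (0.75, adjusted p = 0.27) and Ptgs2 (-0.80, adjusted p = 0.13) did not. For IC and IS against Normal, no block fit was possible because these groups share only 1 replicate number. Ptger4, with 0 to 55 counts per library, is the gene most limited by depth.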
